A study of Homo sapiens with 4 samples.

Results

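The comparison described here sets chromatin accessibility in ARID1A-depleted Huh7 cells against that in control cells when both had received rapamycin. Its members are all peaks listed for these 2 libraries, 49783 for the control hairpin and 44760 for the ARID1A hairpin, out of 192435 peaks listed for the 4 libraries of the study. A control peak sharing no base with any knockdown peak is called lost, and a knockdown peak sharing no base with any control peak is called gained. All other peaks are shared.

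ATAC-seq, which lets a transposase insert adapters where chromatin is open, was made on 50000 cells per library of Huh7, an established line from a human hepatocellular carcinoma. Cells had a short hairpin RNA against ARID1A (shARID1A) or a control hairpin (shControl), and received 100 nM rapamycin or DMSO for 6 h. Each of the 4 groups held 1 library, so differences have no replicate check, no p-value is given, and intervals cover counting error only. The labels do not say which promoter drives the hairpins, how many hairpin sequences were used or whether the cells are a clone, and read depth was unknown.

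ARID1A is the large DNA-binding subunit of the canonical BAF complex, a SWI/SNF remodeller that uses ATP to slide or evict nucleosomes. BAF complexes work above all at enhancers, where they keep DNA open for transcription factors such as AP-1 and TEAD proteins, and ARID1A is frequently mutated in liver cancer. Rapamycin, bound to FKBP12, inhibits mTORC1, the kinase complex that couples amino acids and growth factors to protein, lipid and nucleotide synthesis and restrains autophagy through ULK1 and TFEB.

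Peaks are ranked by the score that the authors deposited. Since scores of separate lists need not be comparable, each peak was given its percentile within its own list, with 100 for the strongest. Where 4 percentiles follow each other, they give the control hairpin first (DMSO, then rapamycin) and the ARID1A hairpin after it (DMSO, then rapamycin).

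The promoters that carry the patterns described below are printed first, as the 250 bases before a RefSeq TSS (GRCh38.p14), 5′ to 3′ on the strand of the gene. CCN2 (chr6:131951373-131951622, minus strand) and DUSP1 (chr5:172771196-172771445, minus strand) are shown because their peaks ranked low in shControl rapamycin alone. The SLC7A5 window (chr16:87869508-87869757, minus strand) is shown because its peak ranked low in shARID1A rapamycin alone. CENPB (chr20:3786741-3786990, minus strand) and PDXDC1 (chr16:14974776-14975025, plus strand) are the promoters among the 2 strongest lost and the 2 strongest gained peaks. NR1H4 (chr12:100503110-100503359, plus strand) and UGT2B7 (chr4:69096224-69096473, plus strand) are liver genes whose peaks were absent or low in both knockdown lists. Capitals mark matches to the motifs named in the next paragraph.
CCN2: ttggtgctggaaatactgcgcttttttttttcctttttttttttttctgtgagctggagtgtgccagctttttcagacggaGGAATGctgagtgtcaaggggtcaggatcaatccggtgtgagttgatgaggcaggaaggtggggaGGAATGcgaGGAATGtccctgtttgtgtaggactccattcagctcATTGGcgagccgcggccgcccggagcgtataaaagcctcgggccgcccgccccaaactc
DUSP1: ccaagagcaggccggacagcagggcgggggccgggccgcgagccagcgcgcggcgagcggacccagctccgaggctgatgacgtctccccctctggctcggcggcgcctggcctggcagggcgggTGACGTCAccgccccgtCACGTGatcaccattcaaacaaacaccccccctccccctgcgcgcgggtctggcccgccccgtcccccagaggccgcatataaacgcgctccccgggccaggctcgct
SLC7A5: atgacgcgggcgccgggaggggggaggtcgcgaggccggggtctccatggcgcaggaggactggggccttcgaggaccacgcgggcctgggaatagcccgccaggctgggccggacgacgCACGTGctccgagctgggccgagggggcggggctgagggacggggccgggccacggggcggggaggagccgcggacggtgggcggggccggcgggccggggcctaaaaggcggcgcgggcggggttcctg
CENPB: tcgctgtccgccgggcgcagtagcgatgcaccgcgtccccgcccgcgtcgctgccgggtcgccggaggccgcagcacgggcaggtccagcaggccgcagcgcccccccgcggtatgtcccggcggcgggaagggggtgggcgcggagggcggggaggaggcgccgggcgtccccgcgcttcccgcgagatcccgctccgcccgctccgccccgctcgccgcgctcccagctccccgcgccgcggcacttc
PDXDC1: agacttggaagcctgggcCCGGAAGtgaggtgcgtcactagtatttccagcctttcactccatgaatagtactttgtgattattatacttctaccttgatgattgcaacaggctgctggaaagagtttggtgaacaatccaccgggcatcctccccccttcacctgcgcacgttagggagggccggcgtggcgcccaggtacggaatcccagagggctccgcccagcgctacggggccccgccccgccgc
NR1H4: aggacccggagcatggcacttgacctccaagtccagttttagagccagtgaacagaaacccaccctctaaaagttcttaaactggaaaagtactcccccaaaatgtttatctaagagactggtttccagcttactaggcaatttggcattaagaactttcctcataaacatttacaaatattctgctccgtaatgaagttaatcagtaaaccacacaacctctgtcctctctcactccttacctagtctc
UGT2B7: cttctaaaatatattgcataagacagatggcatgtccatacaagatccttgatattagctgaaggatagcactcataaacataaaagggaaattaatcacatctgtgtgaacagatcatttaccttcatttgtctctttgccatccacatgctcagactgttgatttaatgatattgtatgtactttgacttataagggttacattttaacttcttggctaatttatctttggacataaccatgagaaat

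The motifs searched on both strands were AP-1 (TGANTCA), the cAMP response element (TGACGTCA), TEAD (GGAATG), the E-box (CACGTG), ETS (CCGGAAG), NRF1, NF-Y (CCAAT), forkhead (TGTTTAC), HNF4 (CAAAGTCCA) and C/EBP-ATF (TGATGNAAT). The CCN2 window held 3 TEAD matches, which begin 169, 104 and 95 bases before the TSS, and an NF-Y match at 59. DUSP1 held a cAMP response element at 125 and an E-box at 108, SLC7A5 an E-box at 130, and PDXDC1 an ETS match at 232. No letters of these motifs occurred in the CENPB, NR1H4 and UGT2B7 windows. G+C content was lower in the liver genes than in the other windows, with 81.6% G+C in CENPB and 79.6% in SLC7A5 against 42% in NR1H4 and 32.8% in UGT2B7. Of all 34789 windows of 300 bases around a TSS (250 before, 50 after), 14.1% held the TEAD letters, 34.6% NF-Y, 1.84% the cAMP response element, 7.24% the E-box and 10.2% ETS. Printed matches did not overlap one another, and a match describes letters, not binding.

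With knockdown, 13299 of the 49783 control peaks were lost, which is 26.7% (exact binomial 95% interval 26.3 to 27.1). In the other direction, 8030 of the 44760 knockdown peaks were gained, or 17.9% (17.6 to 18.3). The knockdown list was the shorter of the pair. When both lists were held to the same number of top-ranked peaks, 9443 were lost and 9164 gained, so lost and gained peaks were then nearly equal in number.

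Lost and gained peaks were mostly weak and narrow. The median lost peak stood at percentile 19.4 of the control list and was 482 bases wide, against 855 bases for shared control peaks. The median gained peak stood at percentile 16.1 and was 424 bases wide, against 785 for shared knockdown peaks. Above percentile 50 of their lists, 1051 peaks were lost and 530 gained, and above percentile 75 these were 27 and 20. From the weakest to the strongest score decile, the lost share went from 76.7% to 0.0402%, and the gained share from 60.5% to 0 of 4477 peaks, which allows up to 0.0824%.

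Promoters, meaning peaks whose deposited distance to a TSS is at most 1 kb, were mostly shared. Among promoter peaks, 829 of 12933 (6.41%, 5.99 to 6.85) were lost and 694 of 12823 (5.41%, 5.03 to 5.82) gained. Of distal peaks, meaning all others, 12470 of 36850 (33.8%, 33.4 to 34.3) were lost and 7336 of 31937 (23.0%, 22.5 to 23.4) gained. Distal peaks were weaker, and the comparison was therefore repeated within score deciles. In the fifth decile from the bottom, 10.7% (8.43 to 13.2) of promoter and 25.4% (24.1 to 26.7) of distal control peaks were lost. Weighted to the deciles of the promoter peaks, the distal lost share was 11.2% and the distal gained share 6.89%. The gap between the classes was thus much smaller at matched score, and for gained peaks the shares lay close, at 5.41% for promoters.

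**Figure D1:**
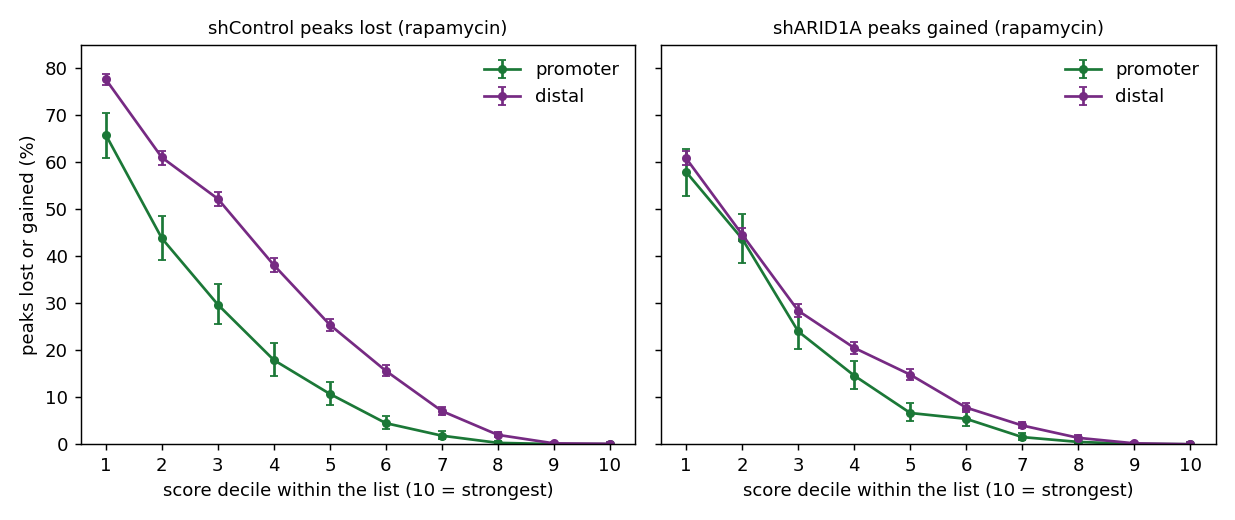
Share of peaks lost (left, of shControl rapamycin peaks) and gained (right, of shARID1A rapamycin peaks) by score decile within the list, for promoter peaks within 1 kb of a TSS and distal peaks; bars are exact binomial 95% intervals. Both shares are lower at higher score, and distal peaks lie above promoter peaks in the middle deciles, for example 25.4% against 10.7% lost in the fifth.

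Within genes, introns beyond the first lost the largest share of the annotation classes, 37.3% (36.4 to 38.1), and first introns 28.6% (27.7 to 29.6). Intergenic peaks lost 33.1%, peaks at transcription termination sites (TTS) 28.2%, exons 17.3% and promoter-TSS peaks 6.43%. Gained shares spread less, with 23.6% in later introns, 18.5% in first introns, 23.9% between genes, 23.0% at TTS, 14.4% in exons and 5.19% at promoter-TSS. The lost share also grew with distance from the TSS, from 29.1% at 1 to 5 kb through 33.0% at 5 to 20 kb and 35.6% at 20 to 100 kb to 39.2% (37.4 to 41.1) beyond 100 kb. Gained shares over the same bins were 21.1%, 23.7%, 22.9% and 23.9%, with no such gradient beyond 5 kb. By chromosome, distal losses ran from 27.2% on chromosome 19 to 38.0% on X, and distal gains from 19.5% on X to 27.4% on 20. These shares by annotation, distance and chromosome were not matched on score, with which lost and gained shares vary strongly. The part of score in them was not tested.

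**Figure D2:**
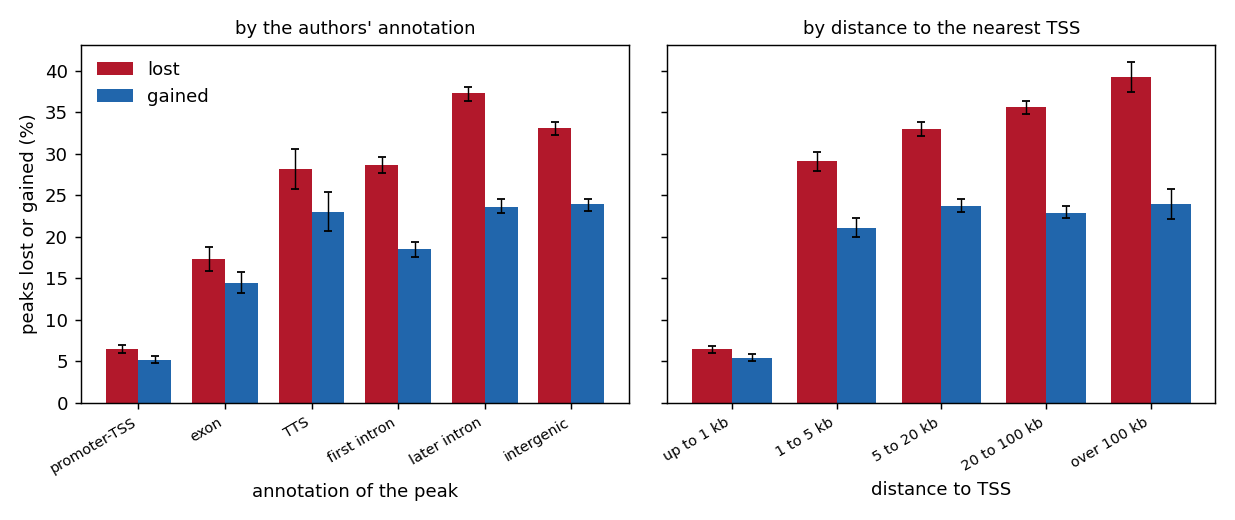
Percentage of shControl rapamycin peaks lost and of shARID1A rapamycin peaks gained, by the authors' annotation (left) and by distance to the nearest TSS (right); bars start at 0 and error bars are exact binomial 95% intervals. Losses climb from 29.1% at 1 to 5 kb to 39.2% beyond 100 kb, while gains beyond 1 kb stay between 21.1% and 23.9%. Shares are not matched on score.

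The DMSO libraries played no part in choosing the peaks. Of all lost peaks, 22% overlapped a peak in both DMSO lists and 40.3% in neither, and of all gained peaks 19.2% and 48.6%. Among the 1051 lost peaks above percentile 50, 577 (54.9%) overlapped a peak in both DMSO lists, 294 (28.0%) only in shControl DMSO, 84 (7.99%) only in shARID1A DMSO and 96 (9.13%) in neither. Among the 530 gained peaks above percentile 50, 285 (53.8%) were in both DMSO lists, 143 (27.0%) only in shARID1A DMSO, 39 (7.36%) only in shControl DMSO and 63 (11.9%) in neither. Of all peaks above percentile 50, 95.6% in shControl rapamycin and 96.8% in shARID1A rapamycin were in both DMSO lists. Among lost and gained peaks of that strength, the commonest form was thus a peak present in 3 libraries and missing from 1 rapamycin library. The shARID1A DMSO list skips 6666 peak numbers (12.7%) and the shControl rapamycin list 1093 (2.15%), so a peak missing from those lists is not shown to be closed. Between control peaks with a skipped number lay 508 gained peaks (6.33%).

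The strongest lost peak lay in intron 3 of MBTPS1, which encodes the site-1 protease that activates SREBP proteins (chr16:84096538-84097158). It stood at percentiles 90.9, 92.4 and 78.3 in the first 3 lists and was not listed in shARID1A rapamycin. An intergenic peak 23709 bases from IER5, an immediate early gene, had the same form at 89.2, 88.0 and 79.8 before its absence (chr1:181111951-181112891). So did a peak in intron 3 of ATG7, the E1-like enzyme of autophagy, at 89.8, 85.3 and 69.3 (chr3:11302495-11303022), and the promoter of the polarity gene LLGL1 at 90.0, 78.3 and 87.3. The promoter of CENPB, which binds the centromeric CENP-B box, differed: it stood at 83.3 and 91.8 in the control lists and was missing from both knockdown lists (chr20:3786727-3787166). No peak number is skipped there in shARID1A DMSO. The other 5 of the 10 strongest lost peaks lay nearest to AC069061.1, AC131212.1, AC004593.2, LINC01589 and AC074011.1, non-coding or unnamed loci. Of these, AC069061.1 was listed in shControl rapamycin alone, at 88.7, and the rest in 3 lists.

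Among the 10 strongest gained peaks, 8 were present in both DMSO lists. The PDXDC1 promoter (chr16:14974931-14975315) stood at 81.2, absent, 80.8 and 83.5. A peak at -12091 bases (upstream) from the TSS of TRPV4, a calcium-permeable channel gene, stood at 74.0, absent, 86.9 and 81.1, and one at -1419 bases from PEAR1 at 83.5, absent, 77.0 and 77.1. The top one, an intergenic peak 5904 bases from MIR3193 (chr20:31612888-31613293), was listed in the knockdown libraries only, at 84.8 and 87.8. A further 5 lay in or near RAB37, FRG1GP, AC010931.2, SLC38A12 (TMEM104 in the authors' annotation) and SMIM17, each absent from shControl rapamycin alone.

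Shared peaks were compared by the percentile in shARID1A minus that in shControl, over 36358 pairs of mutually largest overlap. The median shift was -1.88 points. A shift of 20 points or more upward was seen in 1956 pairs (5.38%) and downward in 4524 (12.4%). Promoter pairs were centred, with a median of -0.149 and 352 up (2.92%) against 349 down (2.89%) of 12064. Distal pairs had a median of -4.27 with 1604 up (6.60%) and 4175 down (17.2%) of 24294. This split depends on the unequal list lengths: with percentiles taken over the paired peaks only, 3030 were up and 3122 down, and the median was 0.161. On that scale promoter pairs had 650 up (5.39%) and 237 down (1.96%), and distal pairs 2380 up (9.80%) and 2885 down (11.9%). On both scales the distal median lay below the promoter median, at -1.08 against 1.19 over paired peaks only.

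**Figure D3:**
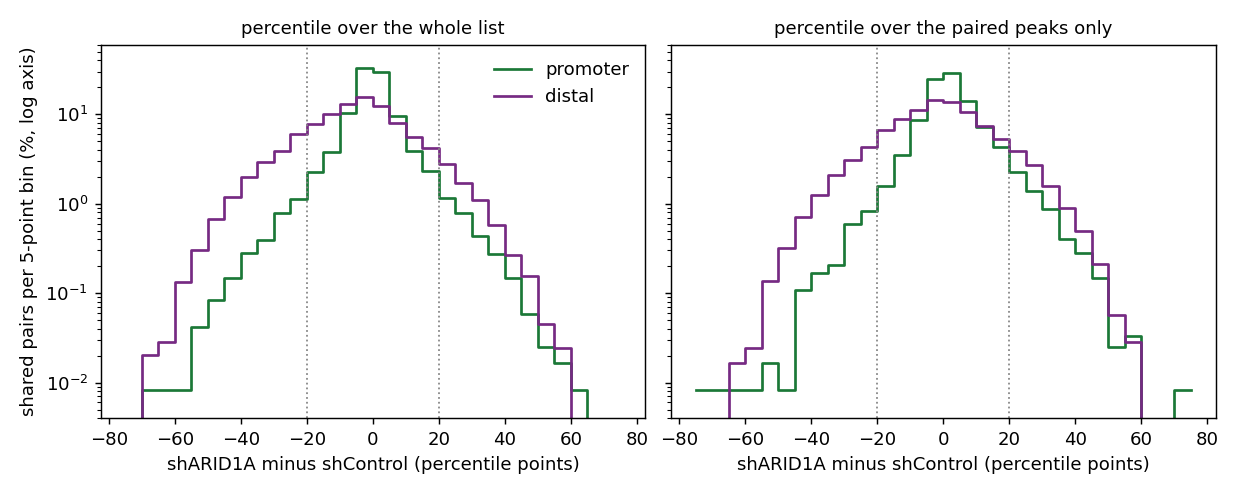
Distribution of the percentile shift, shARID1A minus shControl under rapamycin, in 5-point bins for 12064 promoter and 24294 distal pairs, with percentiles over the whole list (left) or the paired peaks only (right); the vertical axis is logarithmic and dotted lines mark 20 points. Distal pairs spread wider than promoter pairs in both panels, and the excess of downward distal shifts shrinks from 17.2% against 6.60% to 11.9% against 9.80%.

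The DMSO pair of libraries shares no library with the rapamycin pair, so the same shift could be read there. Of 31390 pairs found in all 4 lists, 3617 were down by 20 points or more under rapamycin, and 1284 of these (35.5%) were also down by that much in DMSO, against 11.2% of all such pairs. At distal pairs these shares were 37.1% and 16.7%, and at pairs between percentiles 40 and 60 in shControl 36.6% and 19.0%. Of 1467 up under rapamycin, 222 (15.1%) were up in DMSO, against 4.03% of all. The contrast was smaller at matched strength: up to percentile 20 in shControl these shares were 15.5% and 10.6%. Between percentiles 20 and 40 they were 16.9% and 10.3%, and between 40 and 60 11.3% and 7.48%. Between 60 and 80 they were 0 of 15 pairs and 2.14%. Across these pairs the shifts in the 2 media had a Pearson coefficient of 0.35, 0.19 at promoters and 0.36 at distal peaks. This is across regions of the same 4 libraries and is given as a description. These shares and coefficients use percentiles over the whole list and were not computed over paired peaks only. In both media the knockdown list was the shorter, with 44760 against 49783 peaks in rapamycin and 45700 against 52192 in DMSO. The part of list length in this agreement was not tested.

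Merging overlapping peaks and taking the strongest in each list gave 31580 regions present in all 4. On whole-list percentiles, shARID1A rapamycin stood 20 points or more below each of the 3 other libraries in 858 of them, against 323 for shControl rapamycin, 300 for shControl DMSO and 409 for shARID1A DMSO. It stood above all of them by that much in 146, against 229 for shControl rapamycin, 496 for shControl DMSO and 87 for shARID1A DMSO. These counts depend on the unequal list lengths. With percentiles taken over the 31580 regions, shARID1A rapamycin was lower in 410 and higher in 394, shControl rapamycin lower in 319 and higher in 273, shControl DMSO lower in 461 and higher in 449, and shARID1A DMSO lower in 255 and higher in 191. On that common scale the counts of shControl DMSO exceeded those of both rapamycin libraries.

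Of the 20 shared promoters of YAP/TEAD target genes, 2 ranked higher with knockdown by 20 points or more and none lower, beside 2.92% and 2.89% over all promoter pairs. CCN2 encodes a secreted matricellular protein and is a standard YAP/TEAD target. Its promoter peak (chr6:131949492-131951566 in shControl rapamycin), printed above with its TEAD letters, stood at 85.2, 44.7, 85.5 and 89.0. The shControl rapamycin library was far below the 3 others, and the knockdown difference under rapamycin was 44.3 points. The authors' nearest gene for this peak is AL133346.1, a transcript that shares the promoter region. ASAP1, an Arf GTPase-activating protein gene, had the same form at 75.5, 48.6, 77.1 and 81.3, a difference of 32.7. CCN1, the close relative of CCN2, stood at 82.9, 69.5, 80.4 and 84.6, and ANKRD1 at 90.3, 83.6, 89.2 and 92.8, so their differences of 15.1 and 9.27 points were in the same direction and under 20. Over these 20 promoters the median shift was 1.23, beside -0.149 over all promoter pairs.

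Distal peaks nearest to the same genes were lost more often than gained. Of the 80 peaks nearest to YAP/TEAD targets in shControl rapamycin, 23 (28.7%) were lost, all of them distal, which is 37.1% of the distal ones beside 33.8% for all distal peaks. Only 5 of 67 knockdown peaks (7.46%) were gained, 10.2% of the distal ones beside 23.0% for all. CRIM1 and GADD45A each lost 3 peaks and ASAP1 lost 3 while gaining 1. NT5E, DOCK5, FJX1 and TGFB2 lost 2 each, FJX1 and TGFB2 gaining 1. The GADD45A peak 12682 bases from the TSS (chr1:67697630-67698136) was the strongest, at 58.1, 66.1 and 39.4 and then absent. CCN2, CCN1 and ANKRD1 lost none of their 7 peaks. In lists held to equal length, 16 of 71 (22.5%) were lost and 7 of 67 (10.4%) gained. Over all peaks of those lists, 9443 of 44760 were lost and 9164 of 44760 gained, so the lost share then lay near that over all peaks.

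Immediate early and AP-1 genes held members of both kinds. DUSP1, a phosphatase that switches off MAP kinases, had a promoter peak (chr5:172770698-172772632) at 84.4, 59.3, 87.9 and 91.1, low again in shControl rapamycin alone. The knockdown difference was 31.7 points. FOSL1, an AP-1 subunit, stood at 60.4, 63.5, 58.1 and 38.6, and BATF, another, at 35.5, 31.6, 25.4 and 3.28, both lowest in shARID1A rapamycin. FOS at 86.5 and 78.7, JUN at 95.5 and 95.6, EGR1 at 96.3 and 90.5 and MYC at 78.0 and 83.4 (shControl, then shARID1A, in rapamycin) differed by less than 20 points. EGR3 went from 5 nearest peaks to 1 with 2 lost. Over the list, 11 of 73 control peaks (15.1%) were lost and 4 of 65 knockdown peaks (6.15%) gained, both below the 26.7% and 17.9% over all peaks. Of its distal peaks 22% were lost and 8.11% gained, beside 33.8% and 23.0% over all distal peaks. FOSB is set apart: its pair of largest overlap differed by 51.2 points, yet a second control peak over the same region stood at 77.2 and left a difference of 4.60 between the strongest peaks.

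Of 17 shared promoters of ATF4 target and serine synthesis genes, 1 ranked lower by 20 points or more, that of SLC7A5, and none higher, beside 2.89% and 2.92% over all promoter pairs. SLC7A5 encodes LAT1, the exchanger that brings leucine into the cell. Its promoter peak (chr16:87869191-87869674) stood at 35.5, 54.4, 34.9 and 2.05, near the bottom of the shARID1A rapamycin list alone, 52.3 points below shControl rapamycin. Its partner SLC3A2 was at 97.1 in shControl and 98.5 in shARID1A under rapamycin, and other ATF4 targets were near level, with ASNS at 95.9 and 97.0, PHGDH at 93.4 and 96.3, PSAT1 at 98.0 and 94.8, TRIB3 at 82.3 and 78.8 and CHAC1 at 68.6 and 71.2. Most of these other genes ranked higher in shControl than SLC7A5 did. Of all pairs at shControl percentiles 40 to 60, 23.4% were down by 20 points or more. This share was 17.8% at 60 to 80 and 2.3% at 80 to 100. A distal PSAT1 peak at -9925 bases from the TSS (chr9:78286949-78287488) was lost after standing at 63.6, 63.0 and 35.5. Of 27 shared promoters of lysosome and autophagy genes, 1 was lower, that of TFEB, and 1 higher, that of SQSTM1. TFEB, the transcription factor of lysosomal genes that mTORC1 phosphorylates, had its promoter at 46.2, 56.8, 57.5 and 25.4. Its relative MITF had a promoter peak at 43.2, 22.3 and 64.0 that was lost, while TFE3 was at 99.9 in both rapamycin lists.

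ULK1, the kinase that starts autophagy and is held in check by mTORC1, was a gained promoter. Its peak (chr12:131894309-131894691) stood at 50.4 in shControl DMSO, was absent from shControl rapamycin and stood at 73.1 and 74.2 in the knockdown libraries, with no skipped number at the gap. The lysosome and autophagy list as a whole held more gained than lost peaks, 7 of 38 (18.4%) against 2 of 38 (5.26%), beside 17.9% and 26.7% over all peaks. Most of its peaks were at promoters, where 5.41% of all peaks were gained and 6.41% lost. Of its distal peaks, 6 of 14 (42.9%) were gained and 2 of 12 (16.7%) lost, beside 23.0% and 33.8% over all distal peaks. ATG9B, a lipid scramblase gene of autophagy, gained 2 peaks, in its exon 7 (chr7:151018114-151018526) at 51.6 and 54.8 in the knockdown lists and in intron 17 of its neighbour NOS3 at 62.2 and 54.7. NEU1, ATP6V0D1, SQSTM1 and ATG5 gained 1 each, and CTSB and ATG13 lost 1 each. The counts of this gene list did not change in lists of equal length, where 9443 of 44760 peaks were lost and 9164 of 44760 gained. SQSTM1 shows why single pairs need care: its pair differed by 28.6 points and its strongest promoter peaks by -7.61.

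All 39 shared promoter peaks of mTOR complex and regulator genes differed by less than 20 points, with a median of 0.798. Over all promoter pairs 2.92% were up and 2.89% down by that much, so this does not stand out. The genes named next ranked high. Among all pairs above percentile 80 in shControl, 0 were up by that much and 2.3% down. MTOR was at 98.3 in shControl and 99.4 in shARID1A, RICTOR at 95.2 and 91.3, TSC2 at 93.8 and 94.5, RHEB at 95.7 and 91.6 and RPS6KB1 at 93.4 and 97.2, all under rapamycin. Of distal peaks, 10 of 44 (22.7%) were lost and 4 of 38 (10.5%) gained, both below the 33.8% and 23.0% over all distal peaks. Counting promoter and distal peaks together, GRB10 lost 3 and RICTOR, RHEB and INSR 2 each. GRB10 and PRR5, an adaptor of insulin signalling and an mTORC2 subunit, each had 1 promoter peak among these losses and kept another.

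Of 42 peaks nearest to genes of bile acid, drug and alcohol metabolism, 15 (35.7%) were lost, all distal, and 3 of 30 (10.0%) gained, beside 26.7% and 17.9% over all peaks. Of the distal peaks of these genes 45.5% were lost and 13.6% gained, beside 33.8% and 23.0% over all distal peaks. ABCC2, the canalicular exporter of conjugated bilirubin, lost 4 of 5 peaks and ABCB11, the bile salt export pump, 2 of 3. In equal-length lists, 13 of 37 (35.1%) were lost and 6 of 30 (20.0%) gained. Over all peaks of those lists, 9443 of 44760 were lost and 9164 of 44760 gained, so the gained share then lay near that over all peaks. UGT2B7, which conjugates drugs and steroids to glucuronic acid, kept its promoter peak (chr4:69095921-69096681) at 50.1, 46.5, 13.8 and 9.17, low in both knockdown libraries by 36.3 points in DMSO and 37.4 in rapamycin. UGT2B genes form a family of near-identical copies, between which short reads can be split. NR1H4, the bile acid receptor FXR, lost its promoter peak: it stood at 26.5 and 7.11 in the control libraries and in neither knockdown library, with no skipped number in shARID1A DMSO. The peak was weak, and in its rapamycin score decile 65.8% of all promoter peaks were lost. The xenobiotic receptor gene NR1I2 had the opposite form to NR1H4, absent from both control libraries and at 15.5 and 22.2 with knockdown. In its rapamycin decile 24.0% of all promoter peaks were gained. PPARA, the receptor that drives fatty acid oxidation, stood at 3.0, 12.0, 50.5 and 37.0, higher in both knockdown libraries.

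Other promoters of listed genes that were lost were APOA5, an apolipoprotein of triglyceride metabolism, at 53.4, 36.8 and 65.8 before its absence, and 5 peaks below percentile 15 in shControl rapamycin, at ELOVL6, ESRP1, LUM, RXRA and TWIST1. CDC25B, HK1, PFKL and SMAD3 lost 1 promoter peak and kept another, that of CDC25B being the CENPB peak. Gained promoters included CDH1 (E-cadherin), absent from both control libraries and at 17.2 and 36 with knockdown. ID2, whose protein blocks DNA binding by basic helix-loop-helix factors, stood at 55.9, absent, 66.4 and 51.3, and LYVE1, a hyaluronan receptor gene, at 72.0, absent, 52.1 and 53.3. Others were ITGB4, SPARC and TCF7, with TTR and RBFOX3 in gaps where the shControl rapamycin list skips a number. Higher by 20 points or more were also LDHA at 83, 69.4, 77.0 and 90.0, COL1A2 at 12.1, 10.4, 23.5 and 49.7 and SKI, a SMAD co-repressor, at 14.0, 19.0, 25.1 and 53.8. Lower were the BMP receptor ACVR1 at 78.4, 83.8, 73.6 and 60.1, CDKN1A (p21) at 76.1, 79.4, 75.3 and 57.7 and LYZ at 29.5, 44.9, 40.9 and 21.8. HK2 and E2F1 differed by 26.2 and -57.8 points in the pair but by 2.08 and 1.88 between strongest peaks.

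**Figure D4:**
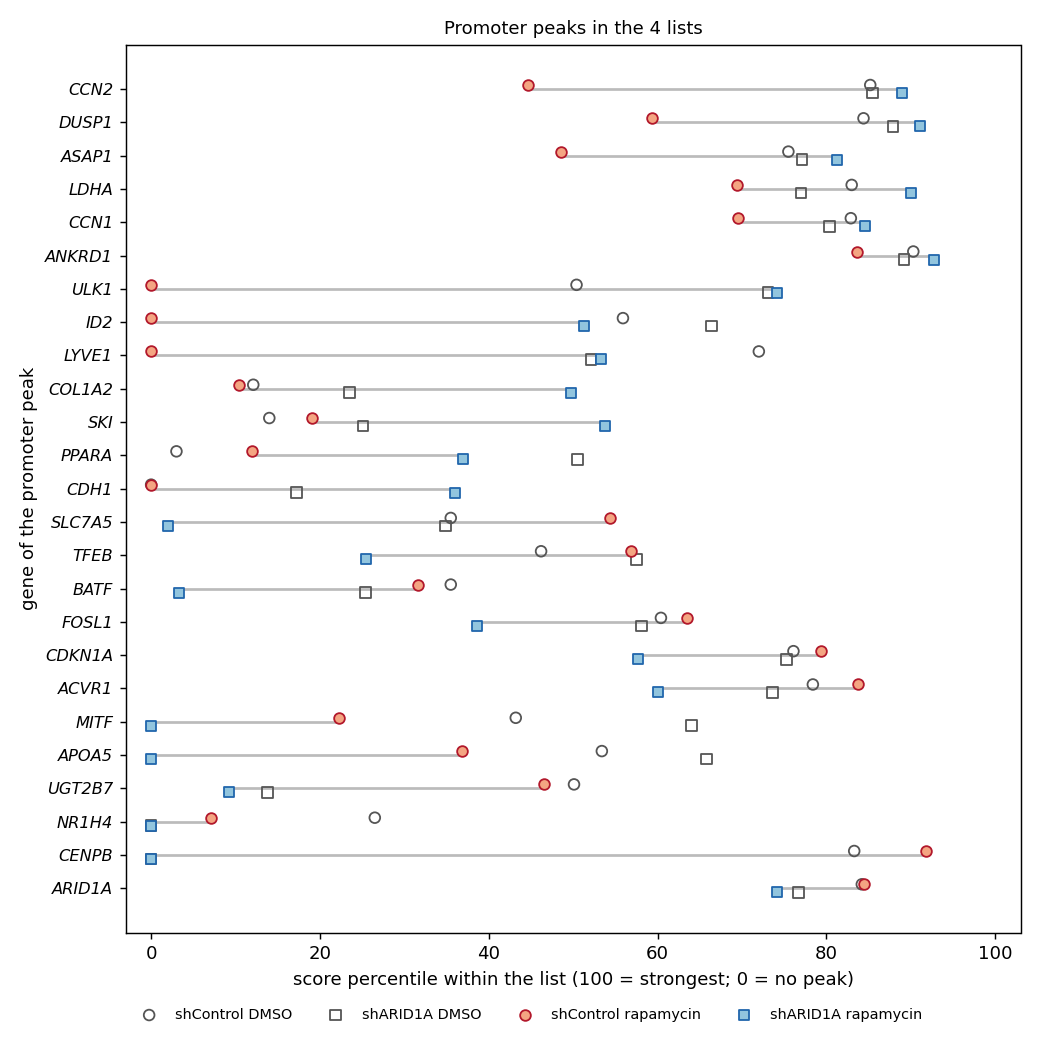
Score percentile of the promoter peak of 25 genes in the 4 lists (100 = strongest, 0 = no peak listed); open symbols are DMSO, filled ones rapamycin, circles shControl and squares shARID1A, and the grey line joins the rapamycin pair. From CCN2 to LYVE1 the shControl rapamycin circle lies left of the other symbols, while at SLC7A5, TFEB and BATF the shARID1A rapamycin square does.

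Of the 510 listed genes, 397 had a shared promoter peak, of which 11 (2.77%) were up and 9 (2.27%) down by 20 points, close to 2.92% and 2.89% over all promoter pairs. Taking the strongest peaks left 8 and 8. The measures differ slightly, since a listed gene has 1 followed peak whose largest overlap need not be mutual, as at FOSB. With percentiles over the paired peaks only, BATF (-15.5) and LYZ (-16.3) came under 20 points and CCN1 (22.6) passed it, and at equal list length CDKN1A (-19.4) and LYZ (-16.9) came under it. Promoters were lost at 8 genes, lost with another kept at 6 and gained at 11, while 88 genes had no promoter peak in either rapamycin list. Over all promoter peaks, 829 of 12933 (6.41%) were lost and 694 of 12823 (5.41%) gained, so these counts do not stand out. By nearest gene, 19 of the 23 lists held more lost than gained peaks, 3 more gained and 1 as many, against 10, 8 and 5 at equal list length. Hippo pathway components (5 of 34 lost, 7 of 40 gained) and lysosome genes were among those with more gained on both counts. Beside 26.7% lost and 17.9% gained over all peaks, ribosomal protein genes had 5.56% and 2.78% (2 of 36 and 1 of 36), sterol and fatty acid synthesis genes 15.6% and 2.7% (7 of 45 and 1 of 37) and glycolysis and HIF genes 29.6% and 10.9% (16 of 54 and 5 of 46). Most ribosomal peaks were at promoters, where 6.41% of all peaks were lost and 5.41% gained.

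**Figure D5:**
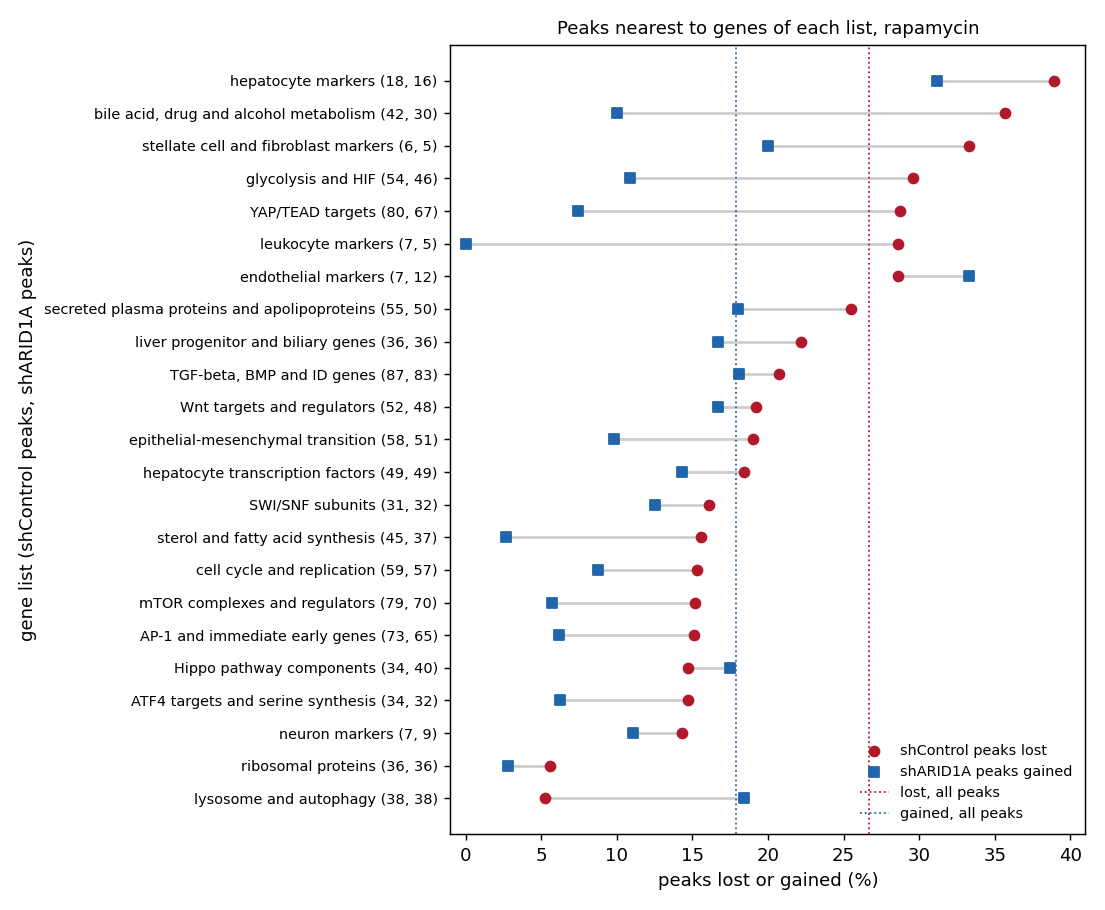
Percentage of peaks nearest to the genes of each of 23 lists that were lost (circles, of shControl rapamycin peaks) or gained (squares, of shARID1A rapamycin peaks); numbers of peaks are in brackets and dotted lines mark 26.7% and 17.9% over all peaks. Lysosome and autophagy genes have the lowest lost share, 5.26%, with most of their peaks at promoters, where 6.41% of all peaks were lost. Lists of fewer than 20 peaks move by several points with 1 peak.

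The nearest genes with the most net losses included a few with known products. TNS3, a focal adhesion protein gene, went from 18 nearest peaks to 10 with 9 lost and 1 gained, and held 16 in each DMSO list. CDK5RAP2, a centrosome gene, went from 9 to 3 with 6 lost. FOXP1 went from 12 to 0, but only 6 were lost, and the other 6 overlap knockdown peaks for which the authors name another nearest gene. The other genes of this rank were AL034349.1, AL158823.1, GCNT1P4, KRT18P15, LPP-AS1, RF00322 and STXBP6. Most gained were DCDC1 (4 to 9 peaks, 6 gained), PAX2 (7 to 11, 6 gained) and OLFM1 (0 to 4, 4 gained), with AL357936.1, AC008427.1, AC226118.1, FGF12-AS2, PPP1R1AP2, RN7SKP178 and Z98755.1. Counted by the gene in which a peak lies, EYS lost 13 of 22 peaks, LPP 11 of 31 and TRIO 11 of 20. Of 34312 nearest genes with a peak, 8323 had more lost than gained and 4703 the converse.

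Of the largest promoter shifts, several shared the pattern of CCN2 or SLC7A5, low in 1 rapamycin library alone. Choosing the largest shifts between the rapamycin libraries makes this likely. On whole-list percentiles, shControl rapamycin stood 20 points or more below each other library at 78 of 13003 promoter regions present in all 4 lists. The same held for shARID1A rapamycin at 82, shControl DMSO at 97 and shARID1A DMSO at 34. ARHGEF2, which encodes a RhoA exchange factor bound to microtubules, stood at 46.9, 5.56, 59.7 and 61.3. MAPK8IP2, a JNK scaffold gene, stood at 62.3, 79.3, 62.8 and 14.9. RHOH, at 64.8, 76.3, 44.6 and 23, differed from these, since its knockdown shift was -20.2 points in DMSO as well. Upward shifts also included AL512652.2, C8orf48 and MIR6819, and downward ones AC091114.1. SPRY2, DLGAP1-AS2, RNF213 and E2F1 also met this rule, at regions where the pair is not 1 peak to 1 peak. At distal pairs the 6 upward shifts were near RNU6-43P (in SUFU), RPS21P8, TENT4B, CNR2, NEURL3 and AC090954.1, between 55.1 and 58.8 points. Each was lowest in shControl rapamycin, which choosing the largest rises over that library makes likely. The 6 downward shifts were near MIR5011, AP001625.1 (in SLC37A1), RNU6-1001P, NUDT19, AC098969.1 and AC090505.2, between -67.7 and -64.6 points.

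Windows around the TSS differed in composition between classes of promoter. The CpG ratio (observed over expected) had a median of 0.84 in 15169 windows under peaks of both lists, 0.52 in 866 under a shControl peak only, 0.59 in 587 under a shARID1A peak only and 0.26 in 18167 under neither. AP-1 letters were in 98 of the 866 control-only windows (11.3%), 42 of the 587 knockdown-only windows (7.16%), 10.2% of those in neither list, 4.52% of those in both and 7.69% of all. Of the 1378 windows in both lists under the weaker shControl peaks (up to percentile 50), 6.82% held AP-1 and 7.98% ETS letters. ETS letters were in 4.73% and 3.75% of the windows under 1 list, 3.31% of those under neither and 19.0% of those under both. TEAD letters were in 12.9% of control-only and 15.0% of knockdown-only windows, beside 14.1% of all. The windows are of unequal composition and no test was made.

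The ARID1A promoter peak stood at 84.2, 84.4, 76.7 and 74.1. Because the hairpin targets ARID1A RNA, chromatin at its gene gives no check of the depletion, and RNA and protein were not analysed here. Hepatocyte markers had promoter peaks at 5 of 8 genes in shControl and 6 of 8 in shARID1A under rapamycin, among them HNF4A and APOB. The sixth is the TTR peak, gained where the shControl list skips a number, and ALB and AFP had none within 1 kb of the TSS in any list. Of the 18 control peaks nearest to these markers 7 (38.9%) were lost, and of 16 knockdown peaks 5 (31.2%) were gained, beside 26.7% and 17.9% over all peaks. The median shift at their 5 shared promoters was -9.48. Markers of other cell types had promoter peaks at 3 and 3 of 8 leukocyte genes, 0 and 1 of 7 endothelial genes, 3 and 3 of 8 stellate cell and fibroblast genes and 4 and 5 of 6 neuron genes. PTPRC, PECAM1, VWF and KDR had no promoter peak in either list. The endothelial gene with the added promoter peak was LYVE1, and its part in other results was not tested.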

How the data were processed

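ATAC-seq was made on 4 Huh7 libraries, 1 per group, and each library has its own peak list, per the labels. The submitters' processing notes name BWA, MACS2 2.0 and the build GRCh38 (hg38). Their settings, the read depth and any correction for transposase offset, duplicate reads or mitochondrial DNA were not given in the sources used here; these steps set which weak peaks enter a list. Peak strength is the score deposited by the authors, on a scale not given, and served only to rank peaks of 1 list. Annotation, distance to TSS in bases and nearest gene are the authors' columns, per the file headers.

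Overlap of at least 1 base, percentiles, mutual largest overlaps and exact (Clopper-Pearson) 95% intervals were obtained in Python 3.11.15 (SciPy 1.17.1, NumPy 2.4.6, pandas 2.3.3; plots in matplotlib 3.10.9), after a check on simulated lists with known lost, gained and shifted peaks. Of 34326 nearest-gene names, 23113 are current RefSeq symbols and 739 matched an older one. A promoter peak of a gene lies within 1 kb of its TSS, and for a listed gene the peak nearest to the TSS was followed. Its largest overlap in each other list was taken, mutual or not, whereas the shares over all promoter pairs use mutual overlaps. Where a peak of one list covers several of the other, the strongest was also taken, an alternative chosen after seeing the data. A shift of 20 percentile points counts as up or down.

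The members and the 23 gene lists were chosen with earlier results of these data known. Named peaks are the 10 strongest lost and gained on chromosomes 1 to 22 and X, the 6 largest shifts up and down at promoter and distal pairs, the 10 nearest genes with the most net losses and gains, listed genes whose promoter was lost, gained or shifted by 20 points, and ARID1A, CCN1, CCN2, ANKRD1, ALB and AFP. Ties in the nearest-gene ranking were broken by the number of peaks lost (or gained) and then by order of name. At the last place of each ranking, 31 genes tied for net losses and 58 for net gains. Counts by host gene and promoter windows were added after seeing the data. Alternatives varied the overlap, the number of peaks, the promoter width, the percentile scale and the threshold on the shift. Of the features that meet these rules, 3 are not reported here by name, and the counts include them.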

Additional observations from a re-analysis of the deposited data

Results flagged for a closer look

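At 3 listed promoters the knockdown difference had opposite signs in rapamycin and DMSO, each by 20 points or more with an absent peak counted as 0. The difference between the media was not tested. At MITF, the knockdown difference was -22.3 under rapamycin, where the peak was lost, and 20.8 in DMSO. At GRB10 it was -46.3 under rapamycin and 39.1 in DMSO, since the peak was listed in shControl rapamycin and shARID1A DMSO only, while another GRB10 promoter peak was kept. At FOSB it was 51.2 under rapamycin and -50.4 in DMSO by the pair of largest overlap, but the strongest peaks over the region stood at 77.2 and 81.8 under rapamycin, a difference of 4.60, and at 80.5 and 77.6 in DMSO.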

How the results depend on the processing

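No paired analysis was possible because each group held 1 library. Asking only for the stronger 50% of each list gave 1051 lost and 530 gained peaks. Promoter lost shares were then 0.633%, distal 6.81%, promoter gained 0.694% and distal gained 3.82%. In the same order, these 4 shares were 7.03%, 35.8%, 5.98% and 25.4% at an overlap of 50% of the shorter peak, 5.88%, 33.0%, 4.87% and 22% with a peak within 500 bases counted as shared, 4.52%, 27.5%, 6.44% and 26.1% at equal numbers of top-ranked peaks, and 5.14%, 32.7%, 4.29% and 22.3% with promoters within 500 bases. By the promoter-TSS annotation the distal shares were 32.1% and 21.8%, weighted to the score deciles of promoter peaks 11.2% and 6.89%, and without intervals that skip a number the distal gained share was 21.8%. Distal exceeded promoter shares in each of these. The median shift turned to 0.161 over the paired peaks (promoters to 1.19, distal -1.08) and to 0.206 at equal numbers, with 3030 up over the paired peaks and 3198 up and 3000 down at equal numbers. A threshold of 10 points gave 5074 up and 9551 down, and one of 30 points 642 and 1894. Lists with more lost than gained peaks numbered 10 at equal numbers. Between the strongest overlapping peaks, the E2F1 shift turned to 1.88 and that of SQSTM1 to -7.61, the latter from 28.6, since 1 wide peak faced several. Of 66 recomputed shifts at 22 named promoters, 58 stayed on their side of 20 points in the same direction. These promoters include CCN1, ANKRD1 and ARID1A, which were under 20 points. They leave out FOSB, whose followed peak had no mutual pair and whose difference fell to 4.60 between strongest peaks. With percentiles over the regions found in all 4 lists, an alternative chosen after seeing the data, shARID1A rapamycin stood apart as lower in 410 and as higher in 394 regions, shARID1A DMSO in 255 and 191, and shControl DMSO as lower in 461. Unknown depth and 1 library a side limit every value, and no difference has a replicate check.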
